A study of Sus scrofa with 60 samples.

Results

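The genes described here are cytochrome P450 enzymes of the CYP1 and CYP3A families and the receptors that control their transcription, taken as the table rows named *CYP1A1*, *CYP1A2*, *CYP1B1*, *CYP3A22*, *CYP3A29*, *CYP3A39*, *CYP3A46*, *NR1I2*, *NR1I3*, and *AHR*. Of these 10 names, 8 had a row, out of 30359 rows in all. *CYP1B1* had none and was not analysed here, and RefSeq gives *CYP3A39* as another name of *CYP3A46*, whose row stands for both. Livers of 60 neonatal pigs were sequenced as bulk tissue, 14 days after cesarean delivery slightly before term. Every pig had a jugular catheter and abdominal surgery, either ligation of the cystic and common bile ducts (BDL) or a sham operation. All pigs began on parenteral nutrition (PN). Enterally fed (ENT) pigs were then moved to a milk replacer formula, and the remaining pigs stayed on PN with either a soy-based lipid emulsion (SLE, Intralipid) or a mixed lipid emulsion (MLE, SMOFlipid). The groups were ENT-sham (n = 12), ENT-BDL (n = 10), SLE-sham (n = 10), SLE-BDL (n = 11), MLE-sham (n = 9), and MLE-BDL (n = 8), so route of feeding and lipid source change together between ENT and PN pigs.

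CYP1A1 and CYP1A2 oxidize planar aromatic compounds, and their genes are classic targets of AHR, a cytoplasmic receptor that enters the nucleus with its ligand and pairs with ARNT. CYP3A enzymes oxidize a wide range of drugs, steroids, and bile acids. Their genes are induced through NR1I2 (pregnane X receptor, PXR) and NR1I3 (constitutive androstane receptor, CAR), which bind DNA as partners of retinoid X receptors. In obstructive cholestasis these enzymes and receptors are of interest because hydroxylation makes retained bile acids more water soluble.

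On Sscrofa11.1, *CYP1A2* (chr7:58779529-58786155, minus strand) and *CYP1A1* (chr7:58802887-58809155, plus strand) lie 16731 bases apart. *CYP3A22* (chr3:6617256-6665179), *CYP3A46* (chr3:6677911-6709855), and *CYP3A29* (chr3:6738502-6778121) follow each other on the plus strand. The receptor genes are at separate places: *NR1I2* at chr13:140373571-140406129, *NR1I3* at chr4:89226314-89231781, and *AHR* at chr9:86511866-86555950.

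A library held 14469788 to 21374161 counted reads, and all 8 genes were among the 16210 that passed the filter on low counts. Hepatocyte markers defined the tissue, with a summed level of 63570 to 137400 CPM (counts scaled to the effective library size, the library total adjusted by TMM). None of the 10 markers was at 0 in any group. Libraries labelled ENT-sham replicate 2 and ENT-BDL replicate 1 stood apart as a pair. Their counts differed less than those of any other of the 1770 pairs (chi-square per degree of freedom 1.93, next closest pair 16.2), although their labels give opposite surgeries. *CYP3A22* was 2905 and 2810 CPM in this pair, *CYP1A2* 16.8 and 17.0 CPM, and *NR1I3* 13.9 and 15.5 CPM. In ENT-sham, replicate 2 was the lowest pig for *CYP1A1*, *CYP1A2*, *NR1I2*, *NR1I3*, and *AHR* and the highest for *CYP3A22*. For the 8 genes and the gene lists, called results that involve ENT pigs are therefore also given without both libraries, singly or as counts. The identifier of SLE-sham replicate 9 is also that of replicate 10. The chi-square per degree of freedom of this pair was 34.3, below the median of 52.6 for pairs of the same group, and whether these libraries come from 1 pig is not known. Both were kept, and leaving out either changed no count of called members. Each identifier also holds a number with 8 different values, whose meaning is not given in the sources used here. MLE pigs carry only 4 of these numbers, so diet and number are partly tied, and values from a model that also fits this number (identifier block) are given where they change a call.

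Per kilobase of gene length, *CYP3A22* averaged 1522 CPM per kb over the 60 pigs and ranked at place 39 of 16210 genes. *CYP1A1* followed with 96.8 CPM per kb, then *NR1I2* with 43.8, *CYP1A2* with 15.5, and *CYP3A46* with 14.2. *CYP3A29*, *AHR*, and *NR1I3* were at 10.1, 9.65, and 8.02 CPM per kb. One CYP3A gene thus exceeded every other gene of the set by more than an order of magnitude, and the receptors were expressed at moderate levels.

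**Figure D1:**
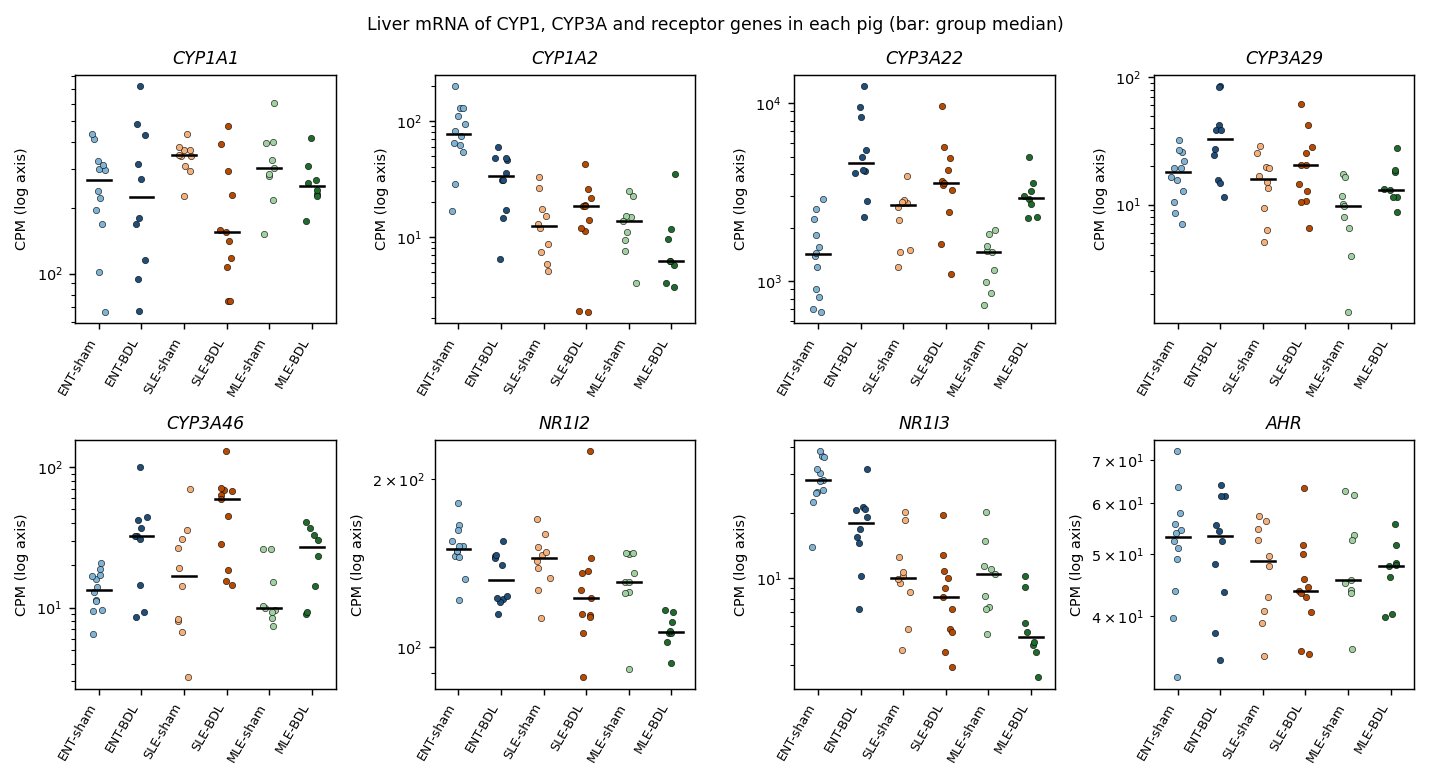
Liver mRNA of the 8 genes in each of the 60 pigs, in CPM on log axes, by diet and surgery group. Points are pigs and bars are group medians. *CYP3A22* in MLE-BDL pigs (2261 to 5001 CPM) lies above every MLE-sham pig (737 to 1941 CPM), and *CYP1A2* and *NR1I3* have their highest medians in ENT-sham (77.8 and 28.2 CPM).

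Genes were called changed at a Benjamini-Hochberg adjusted p under 0.05 in edgeR's quasi-likelihood test and a fold change above 2. With BDL, 4 of the 8 genes were called in ENT pigs (3.39% of all genes tested), none in SLE pigs (1.49%), and 1 in MLE pigs (3.78%). Between BDL groups, 1 was called in SLE against ENT (3.13%), 3 in MLE against ENT (3.18%), and none in MLE against SLE (0.37%). Between sham groups, 2 were called in SLE against ENT (5.24%), 2 in MLE against ENT (3.71%), and none in MLE against SLE (0.463%). At an unadjusted p under 0.05, the comparisons without a call had 3 of the 8 genes for BDL in SLE pigs (18.3% of all genes), 2 for MLE-BDL against SLE-BDL (13%), and 1 for MLE-sham against SLE-sham (11.3%). Neither *CYP1A1* nor *AHR* was called in any of these 9 comparisons, and *NR1I2* was not called either. With both matching ENT libraries left out, each count that involves ENT pigs was the same. Comparisons that share a group, such as both PN groups against ENT-sham, are not independent of each other.

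**Figure D2:**
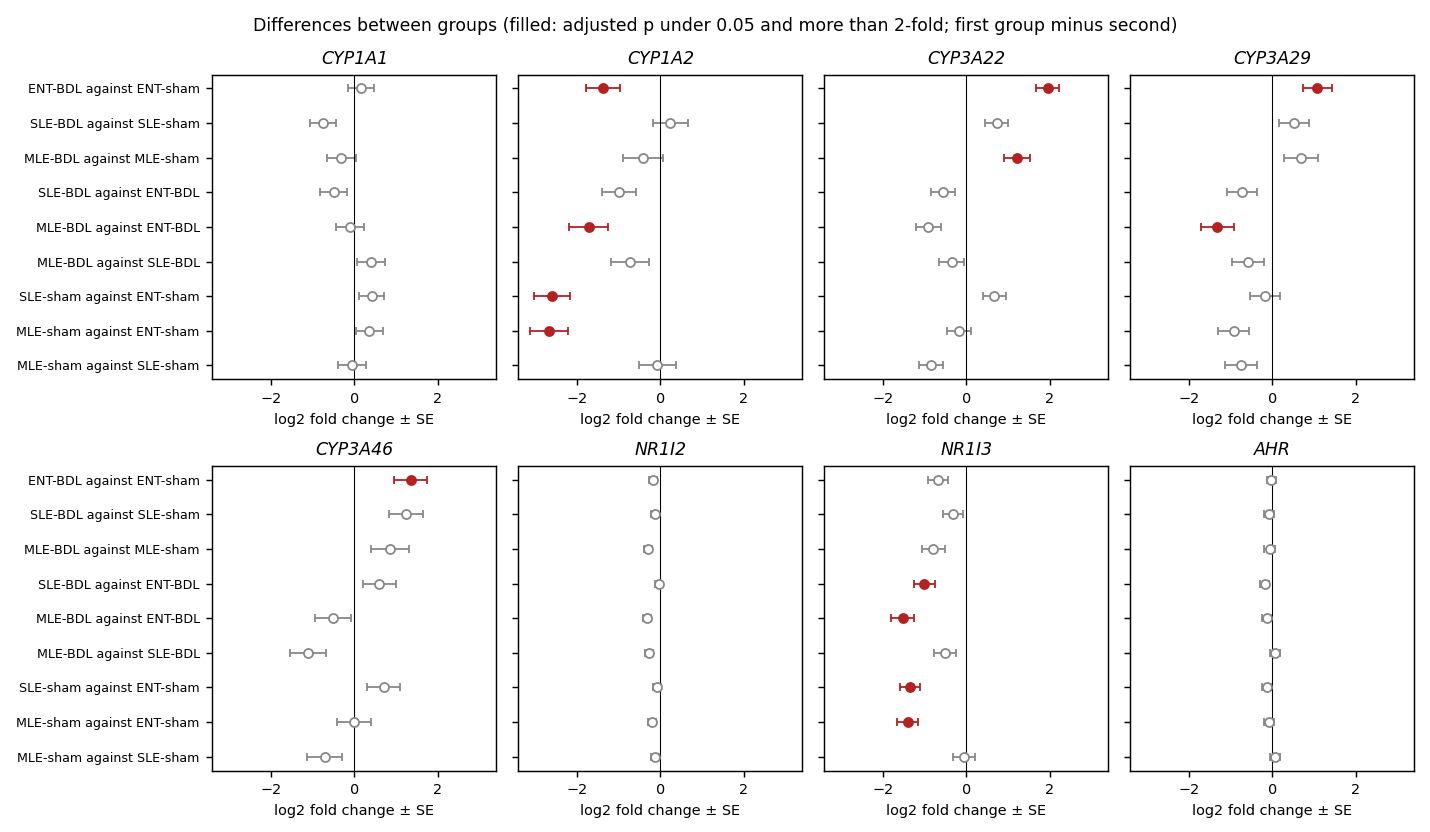
Log2 fold change ± SE of each gene in the 9 comparisons, first group minus second, on linear axes. Filled points are called changed (adjusted p under 0.05 and more than 2-fold). The called rises are BDL effects on CYP3A genes in ENT and MLE pigs, and the called falls are in *CYP1A2*, *NR1I3*, and *CYP3A29*.

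In ENT and MLE pigs, *CYP3A22* had the largest BDL difference of the 8 genes. In ENT-sham pigs it ranged from 673 to 2905 CPM (median 1418), and in ENT-BDL pigs from 2284 to 12540 CPM (median 4601). Of the 10 ENT-BDL pigs, 8 were above every ENT-sham pig. The rise was 3.86-fold (log2 fold change 1.95 ± 0.28 SE, adjusted p = 9.38e-07), and it was 2.15 on the log2 scale without both matching libraries. In bulk liver, a change in the number of cells of a type and a change in RNA per cell cannot be told apart.

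In MLE pigs *CYP3A22* rose 2.33-fold with BDL (log2 1.22 ± 0.31, adjusted p = 0.00434). Sham and BDL pigs did not overlap, with the highest sham pig at 1941 CPM and the lowest BDL pig at 2261 CPM. In SLE pigs the range was 1210 to 3888 CPM after sham surgery (median 2681) and 1097 to 9652 CPM after BDL (median 3548). The difference was 1.65-fold and did not pass adjustment (log2 0.72 ± 0.28, adjusted p = 0.131), and 4 of 11 SLE-BDL pigs were above every SLE-sham pig. The widest spread was thus within the ENT-BDL and SLE-BDL groups, where the highest pig exceeded the lowest more than 5-fold.

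*CYP3A46*, its neighbor on chromosome 3, rose 2.55-fold with BDL in ENT pigs (log2 1.35 ± 0.39, adjusted p = 0.0117). It ranged from 6.44 to 20.9 CPM in ENT-sham pigs and from 8.60 to 99.6 CPM in ENT-BDL pigs, of which 7 of 10 exceeded every sham pig. Without both matching libraries the log2 fold change was 1.43 (adjusted p = 0.00881), and without ENT-BDL replicate 4, the pig with the highest level, it was 1.03 (adjusted p = 0.0609). In SLE pigs *CYP3A46* was 22.2 ± 19.96 CPM (SD, n = 10) after sham surgery and 52.9 ± 34.1 CPM (SD, n = 11) after BDL. That difference was of similar size (log2 1.24 ± 0.40) but missed the threshold (adjusted p = 0.0622). It passed with DESeq2 (adjusted p = 0.0335) and with the identifier block (adjusted p = 0.00636). In MLE pigs the values were 13.6 ± 7.41 and 24.5 ± 12.5 CPM (log2 0.85 ± 0.45, adjusted p = 0.209).

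*CYP3A29* rose 2.11-fold with BDL in ENT pigs (log2 1.08 ± 0.35, adjusted p = 0.0233). Its range went from 6.98 to 31.9 CPM (median 18.0) in ENT-sham to 11.5 to 85.6 CPM (median 32.7) in ENT-BDL, and 5 of 10 ENT-BDL pigs were above every sham pig. This call ended with the identifier block (log2 0.89) and without ENT-BDL replicate 4 (0.87), ENT-BDL replicate 10 (0.87), or ENT-sham replicate 9 (0.997). It was 1.14 without both matching libraries (adjusted p = 0.0181). In PN pigs the BDL difference was not called, at log2 0.52 ± 0.36 (adjusted p = 0.467) on SLE and 0.69 ± 0.40 (adjusted p = 0.268) on MLE.

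The CYP3A genes differed far more in level than in response. Per length, *CYP3A22* made up 94.8% to 99.6% of the CYP3A reads in each pig. *CYP3A29* contributed 0.160% to 2.95% and *CYP3A46* 0.119% to 3.01%. Summed over the 3 rows, CYP3A counts rose with BDL by log2 1.93 ± 0.28 in ENT pigs (adjusted p = 9.98e-07) and by 1.20 ± 0.31 in MLE pigs (adjusted p = 0.00493). The SLE difference was 0.72 ± 0.28 (adjusted p = 0.126). These genes are similar in sequence, and reads that fit several of them may have been split or dropped when they were counted, so levels of the minor genes are uncertain.

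**Figure D3:**
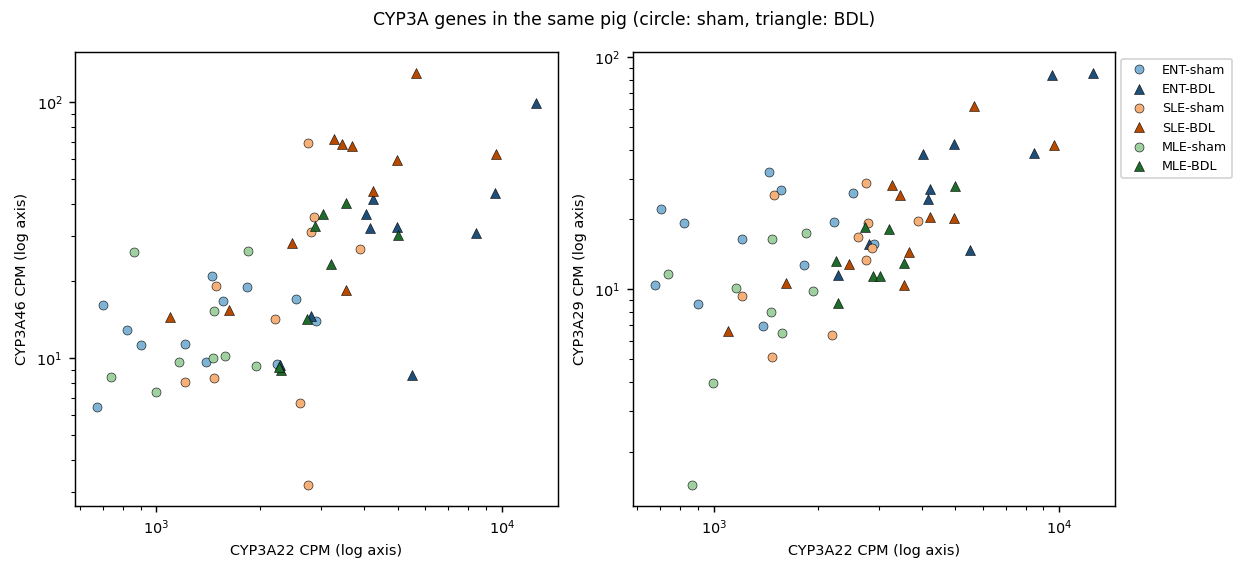
*CYP3A46* (left) and *CYP3A29* (right) against *CYP3A22* in the same pig, in CPM on log axes. Each point is 1 of 60 pigs, with circles for sham and triangles for BDL. *CYP3A22* spans 673 to 12540 CPM, and the pig with its highest level, ENT-BDL replicate 4, also has the highest *CYP3A29* (85.6 CPM).

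Ordered by mean log2 CPM, *CYP3A22* was highest in ENT-BDL, followed by SLE-BDL, MLE-BDL, SLE-sham, ENT-sham, and MLE-sham. Only SLE-sham and ENT-sham, neighbors in this order, were further apart than the SD within groups (1.16 pooled SD). *CYP3A46* was instead highest in SLE-BDL, with every gap between neighbors below 1 SD. *CYP3A29* was highest in ENT-BDL and lowest in MLE-sham, again with no gap above 1 SD.

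Between sham groups, *CYP1A2* had the largest difference of the 8 genes from ENT to either PN diet. ENT-sham pigs had 16.8 to 200.4 CPM (median 77.8), SLE-sham pigs 5.05 to 33.0 CPM (median 12.3), and MLE-sham pigs 4.02 to 24.9 CPM (median 13.8). It fell 6.02-fold in SLE-sham (log2 -2.59 ± 0.43, adjusted p = 5.03e-06) and 6.34-fold in MLE-sham (log2 -2.67 ± 0.45, adjusted p = 1.2e-05) relative to ENT-sham. Of the PN pigs, 7 of 10 SLE-sham and 7 of 9 MLE-sham pigs were below every ENT-sham pig. The lowest ENT-sham level was again that of replicate 2, and the next lowest (28.5 CPM) was above every MLE-sham pig. Without both matching libraries the log2 fold changes were -2.70 and -2.78. The sham PN groups differed by log2 -0.07, with a 95% interval from -0.94 to 0.79.

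*CYP1A2* also fell with BDL in ENT pigs. ENT-BDL pigs had 6.41 to 59.96 CPM (median 33.4), a 2.58-fold fall from ENT-sham (log2 -1.37 ± 0.41, adjusted p = 0.0143). The groups overlapped, and 2 of 10 ENT-BDL pigs were below every ENT-sham pig. The log2 fold change was -1.40 without both matching libraries (adjusted p = 0.0112). After BDL on PN, *CYP1A2* stayed low, at 17.0 ± 11.13 CPM (SD, n = 11) on SLE and 10.2 ± 10.2 CPM (SD, n = 8) on MLE. The BDL differences there were log2 0.24 ± 0.42 (adjusted p = 0.822) and -0.42 ± 0.47 (adjusted p = 0.618). MLE-BDL was 3.29-fold lower than ENT-BDL (log2 -1.72 ± 0.47, adjusted p = 0.00738), with 5 of 8 pigs below every ENT-BDL pig. It was log2 -1.79 without both matching libraries, and -2.32 without MLE-BDL replicate 2, which had 34.6 CPM while the next highest MLE-BDL pig had 11.7 CPM. SLE-BDL was 1.98-fold lower and was not called (log2 -0.99 ± 0.41, adjusted p = 0.083), but passed with the identifier block (log2 -1.20, adjusted p = 0.0116). By mean log2 CPM, ENT-sham and ENT-BDL were highest, 1.37 pooled SD apart, and every later step in the order was below 1 SD.

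*CYP1A1*, the neighbor and close relative of *CYP1A2*, had no such pattern. After sham surgery the group medians were 268.7 CPM (ENT), 348.3 CPM (SLE), and 305.3 CPM (MLE), and after BDL 224.7, 155.4, and 250.7 CPM. Its lowest and highest pigs, at 66.7 and 724.7 CPM, were both ENT pigs. Relative to ENT-sham the differences were log2 0.41 ± 0.31 in SLE-sham (adjusted p = 0.339) and 0.36 ± 0.32 in MLE-sham (adjusted p = 0.449), opposite in sign to *CYP1A2*. With BDL in SLE pigs the estimate was log2 -0.76 ± 0.31 (adjusted p = 0.164), and 7 of 11 SLE-BDL pigs were below every SLE-sham pig.

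The ratio of the CYP1A genes was described in each pig and was not tested. Per length, *CYP1A1* exceeded *CYP1A2* by a median factor of 2.72 in ENT-sham and 4.43 in ENT-BDL pigs. On PN the median factor was 22.6 (SLE) and 19.1 (MLE) after sham surgery, and 11.5 (SLE) and 26.6 (MLE) after BDL. ENT-sham ratios (0.663 to 7.90) and SLE-sham ratios (7.52 to 44.2) overlapped narrowly, and MLE-sham ratios (8.20 to 31.0) lay above those of ENT-sham. After BDL the ratios overlapped widely, at 1.13 to 21.4 on ENT, 2.64 to 34.3 on SLE, and 5.54 to 47.1 on MLE. *CYP1A2* was above *CYP1A1* in 1 pig, from ENT-sham.

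**Figure D4:**
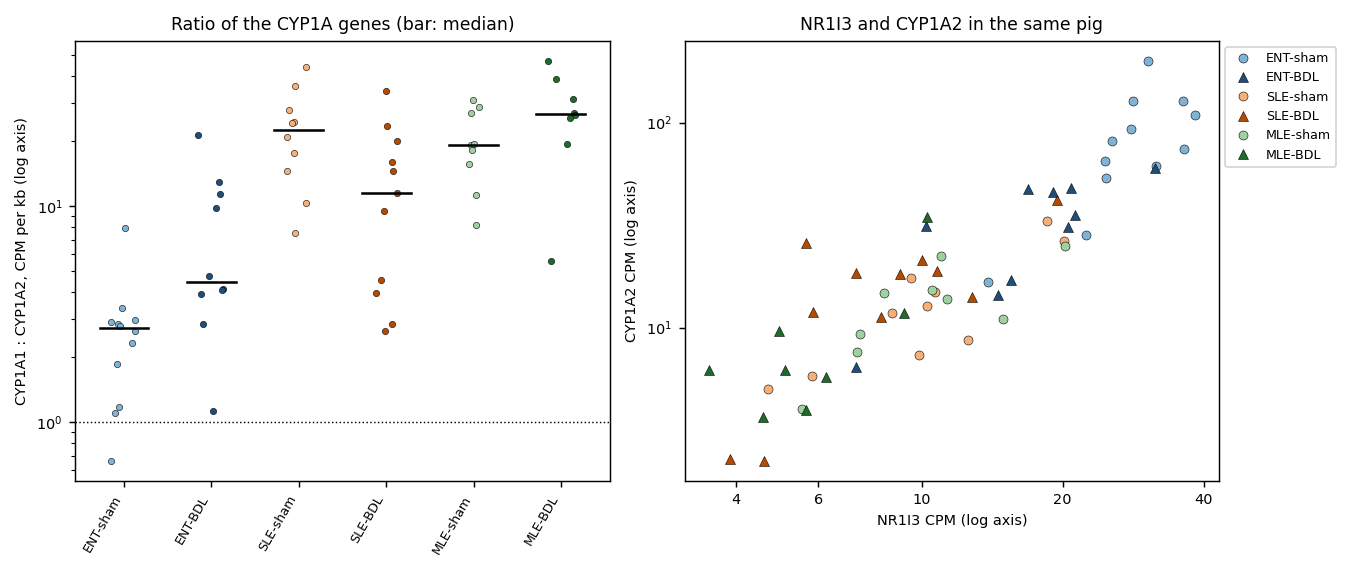
Left, the ratio of *CYP1A1* to *CYP1A2* per length in each pig on a log axis, with group medians as bars and a dotted line at equal levels. Right, *CYP1A2* against *NR1I3* in the same pig, in CPM on log axes. Median ratios are 2.72 in ENT-sham and 22.6 in SLE-sham, and ENT-sham pigs hold the highest levels of both genes on the right.

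Among the receptors, *NR1I3* (CAR) differed most. It ranged from 13.9 to 38.3 CPM (median 28.2) in ENT-sham pigs, from 4.68 to 20.1 CPM (median 10.04) in SLE-sham pigs, and from 5.53 to 20.2 CPM (median 10.5) in MLE-sham pigs. The fall was 2.56-fold in SLE-sham (log2 -1.35 ± 0.24, adjusted p = 1.39e-05) and 2.65-fold in MLE-sham (log2 -1.41 ± 0.25, adjusted p = 2.48e-05). These were -1.42 and -1.48 without both matching libraries. Of the sham PN pigs, 8 of 10 on SLE and 7 of 9 on MLE were below every ENT-sham pig. The overlap rests on ENT-sham replicate 2 (13.9 CPM), since the next lowest ENT-sham pig had 22.4 CPM.

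*NR1I3* was also lower on PN after BDL. ENT-BDL pigs had 7.23 to 31.6 CPM (median 17.9), SLE-BDL pigs 3.89 to 19.5 CPM (median 8.19), and MLE-BDL pigs 3.51 to 10.2 CPM (median 5.37). MLE-BDL was 2.87-fold lower than ENT-BDL (log2 -1.52 ± 0.27, adjusted p = 4.74e-05), with 6 of 8 pigs below every ENT-BDL pig. SLE-BDL was 2.01-fold lower (log2 -1.004 ± 0.24, adjusted p = 0.00192). This value sat at the 2-fold limit, and 10 of the 21 fits that left out 1 pig put it under that limit, the smallest at -0.87 without ENT-BDL replicate 10. Its adjusted p was at most 0.00807 in those fits. Without both matching libraries the log2 fold changes were -1.54 in MLE-BDL and -1.02 in SLE-BDL.

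With BDL, *NR1I3* was lower by less than 2-fold in ENT and MLE pigs, and the SLE difference did not pass the test. The log2 fold change was -0.68 ± 0.24 in ENT pigs (adjusted p = 0.0363), -0.33 ± 0.24 in SLE pigs (adjusted p = 0.514, 95% interval -0.81 to 0.15), and -0.79 ± 0.28 in MLE pigs (adjusted p = 0.0436). At an adjusted p under 0.05, 5 of 10 hepatocyte markers were lower and 1 was higher with BDL in ENT pigs (17.4% of all genes). In MLE pigs 6 were lower (14.4%). All were under 2-fold, as given with the cell type markers. From highest to lowest mean log2 CPM, the groups were ENT-sham, ENT-BDL, SLE-sham, MLE-sham, SLE-BDL, and MLE-BDL. The steps from ENT-sham to ENT-BDL (1.48 pooled SD) and from ENT-BDL to SLE-sham (1.14) exceeded the spread within groups, and the steps among the PN groups did not.

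*NR1I2* (PXR) was the most abundant receptor, and its group means varied little. Pigs spread most in SLE-BDL, from 88.4 to 224.6 CPM. Group means were between 107.3 ± 7.37 CPM (SD, n = 8) in MLE-BDL and 150.8 ± 15.2 CPM (SD, n = 12) in ENT-sham. Differences below 2-fold passed the adjusted p for MLE-BDL against MLE-sham (log2 -0.29 ± 0.10, adjusted p = 0.0423) and against ENT-BDL (-0.32 ± 0.10, adjusted p = 0.0203). In the latter comparison 6 of 8 MLE-BDL pigs were below every ENT-BDL pig, and 114.8 CPM was the lowest ENT-BDL level.

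*AHR* group means were close to each other. They lay between 45.1 ± 7.97 CPM (SD, n = 11) in SLE-BDL and 52.2 ± 10.6 CPM (SD, n = 12) in ENT-sham. Log2 differences in the 9 comparisons were between -0.19 (SLE-BDL against ENT-BDL, adjusted p = 0.251) and 0.07 (MLE-BDL against SLE-BDL, adjusted p = 0.864). For BDL in ENT pigs the 95% interval was -0.24 to 0.19, which leaves out a 2-fold change in either direction. For *AHR*, *NR1I2*, and *CYP1A1*, no step between neighbors in the order of groups reached 1 pooled SD.

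Of the CYP3A genes, *CYP3A29* was called between BDL groups. In MLE-BDL pigs it was 8.77 to 27.8 CPM, 2.50-fold lower than in ENT-BDL (log2 -1.32 ± 0.40, adjusted p = 0.0151), and 3 of 8 pigs were below every ENT-BDL pig. The log2 fold change was -1.41 without both matching libraries (adjusted p = 0.0104). *CYP3A22* was 1.88-fold lower there (log2 -0.91 ± 0.31, adjusted p = 0.0328), under the 2-fold limit, and passed it with the identifier block (log2 -1.28, adjusted p = 0.0123). *CYP3A46* did not differ at the threshold (log2 -0.51 ± 0.43, adjusted p = 0.461), but was called with that block (log2 -1.36, adjusted p = 0.0313). SLE-BDL and ENT-BDL pigs differed by log2 -0.56 ± 0.28 in *CYP3A22* (adjusted p = 0.153), -0.73 ± 0.35 in *CYP3A29* (0.14), and 0.60 ± 0.40 in *CYP3A46* (0.306). MLE-BDL and SLE-BDL pigs differed by log2 -0.35 ± 0.30 in *CYP3A22* (adjusted p = 0.667), with a 95% interval from -0.93 to 0.24.

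Whether BDL acted differently by diet was tested as an interaction, called at an adjusted p below 0.05. None of the 8 genes passed for SLE against ENT (2.33% of all genes), MLE against ENT (0.0617%), or MLE against SLE (0.265%). At an unadjusted p under 0.05 there were 3 of the 8 genes for SLE against ENT (14.8% of all genes) and none for MLE against ENT (9.04%) or MLE against SLE (9.76%). The *CYP3A22* response was smaller on SLE than on ENT (log2 -1.23 ± 0.39, adjusted p = 0.0777). It passed without both matching libraries (-1.42, adjusted p = 0.0201), without ENT-sham replicate 2 alone (-1.34, adjusted p = 0.0281), and without SLE-BDL replicate 7 (-1.46, adjusted p = 0.021). The *CYP1A2* response on SLE was log2 1.60 ± 0.58 above that on ENT (adjusted p = 0.138), and 1.85 with the identifier block (adjusted p = 0.0401). *CYP1A1* gave -0.91 ± 0.44 (adjusted p = 0.309).

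Of the 10 tested AHR partners, repressor, and targets, 1 rose with BDL on each diet. This was *ARNT2*, a relative of the AHR partner ARNT. Its log2 fold change was 1.64 ± 0.42 on ENT (adjusted p = 0.00346), 1.92 ± 0.47 on SLE (adjusted p = 0.0097), and 2.06 ± 0.52 on MLE (adjusted p = 0.00395). Its level was low, at 0.483 CPM in ENT-sham and 1.58 CPM in ENT-BDL, and without both matching libraries the ENT difference was 2.34 (adjusted p = 1.01e-05). No gene of this list was called between diets. At an adjusted p under 0.05 without the fold limit, 2 were higher and 4 lower in SLE-BDL (19.6% of all genes), and 2 were higher and 3 lower in MLE-BDL (16.8%), relative to ENT-BDL. The median of the list stayed between -0.12 and 0.09 on the log2 scale over the 9 comparisons, beside medians of all genes between -0.01 and 0.01.

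A list of 20 tested genes for partners and coregulators of PXR and CAR also held *VDR*, which is a separate nuclear receptor. Of these 20, 1 rose with BDL in ENT (*VDR*), 1 in SLE (*GADD45B*), and 2 in MLE pigs (*VDR* and *GADD45B*). None was called between diets. At an adjusted p under 0.05 without the fold limit, 2 were higher and 7 were lower with BDL in ENT pigs (17.4% of all genes passed this rule), among them *RXRA*, the retinoid X receptor partner (log2 -0.37 ± 0.10, adjusted p = 0.00858), and *CEBPA*, a hepatocyte transcription factor (-0.76 ± 0.15, adjusted p = 0.000219). Relative to ENT-BDL, 6 were higher and 1 was lower in SLE-BDL (19.6% of all genes), with a list median of 0.15. *VDR*, the vitamin D receptor, rose by log2 2.16 ± 0.51 in ENT (adjusted p = 0.00164) and 3.496 ± 0.64 in MLE pigs (adjusted p = 9.22e-05), from 0.217 to 1.05 CPM and from 0.118 to 1.41 CPM. Without both matching libraries, *VDR* differed by 2.93 in ENT pigs (adjusted p = 3.2e-05) and was also called in SLE-sham against ENT-sham (log2 1.93 ± 0.55, adjusted p = 0.0053). *GADD45B*, a stress-induced gene that can act as a CAR coactivator, was higher after BDL by log2 1.17 ± 0.24 on SLE (adjusted p = 0.00223) and 1.10 ± 0.27 on MLE (adjusted p = 0.00255). List medians were -0.13 for BDL in ENT, -0.08 in SLE, and -0.05 in MLE pigs.

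Among 11 tested other targets of PXR and CAR, no gene was called with BDL in ENT or SLE pigs and 1 fell in MLE pigs. Without the fold limit, 3 were lower with BDL in ENT pigs (17.4% of all genes). In each PN sham group, 5 were lower and 1 higher than in ENT-sham (27.5% of all genes for SLE and 21.1% for MLE). Between diets, 2 fell in SLE-sham and 2 in MLE-sham relative to ENT-sham, while 1 rose and 2 fell in SLE-BDL, and 1 rose and 1 fell in MLE-BDL, relative to ENT-BDL. *SULT2A1*, which sulfates steroids and bile acids, was 214.9 CPM in ENT-sham, 67.8 in SLE-sham, and 69.2 in MLE-sham pigs. It fell by log2 1.66 ± 0.33 in SLE-sham (adjusted p = 7.55e-05) and 1.63 ± 0.34 in MLE-sham (adjusted p = 0.000258). In MLE-BDL it was 28.9 CPM, lower than in ENT-BDL (log2 -2.87 ± 0.39, adjusted p = 1.86e-07), MLE-sham (-1.26 ± 0.37, adjusted p = 0.0136), and SLE-BDL (-1.82 ± 0.36, adjusted p = 0.00544). *CYP2B22*, a P450 of the CAR-responsive CYP2B family, stayed below 1 CPM and fell by log2 2.76 ± 0.57 in SLE-sham (adjusted p = 0.00015) and 1.41 ± 0.53 in MLE-sham (adjusted p = 0.048). It also fell in SLE-BDL relative to ENT-BDL (-1.71 ± 0.55, adjusted p = 0.0208), as did *SULT2A1* (-1.05 ± 0.32, adjusted p = 0.0147). These calls against ENT groups also held without both matching libraries, with *SULT2A1* at -1.71 in SLE-sham and *CYP2B22* at -2.88.

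P450 enzymes need heme and electron donors. Of 19 tested genes of these functions, none was called with BDL on any diet, 1 rose in each PN-BDL group relative to ENT-BDL, and 1 fell in each PN sham group relative to ENT-sham. Without the fold limit, 5 were lower and 1 higher with BDL in ENT pigs (17.4% of all genes), and 7 were lower and 2 higher in SLE-sham than in ENT-sham (27.5%). *ALAS1*, the rate-limiting enzyme of hepatic heme synthesis and also a PXR and CAR target, rose by log2 1.94 ± 0.25 in SLE-BDL (adjusted p = 4.27e-08) and 1.22 ± 0.26 in MLE-BDL (adjusted p = 0.000419), from 65.1 CPM in ENT-BDL. *FDX1*, which donates electrons to mitochondrial P450s, fell by log2 1.31 ± 0.10 in SLE-sham (adjusted p = 1.62e-15) and 1.10 ± 0.10 in MLE-sham (adjusted p = 3.09e-12), from 116.5 CPM in ENT-sham. *ALAS1* was at 1.90 and 1.18, and *FDX1* at -1.37 and -1.16, without both matching libraries. *ALAS1* thus ran against *CYP1A2* and *NR1I3* between ENT-BDL and MLE-BDL.

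Cholangiocyte markers moved with BDL as well. Their summed level was 130.8 to 417.8 CPM in ENT-sham and 282.7 to 523.5 CPM in ENT-BDL. On SLE it went from 229.4 to 425.6 CPM after sham surgery and from 327.7 to 629.0 CPM after BDL, and on MLE from 163.8 to 263.2 and from 280.5 to 549.7 CPM. Of 9 markers, 4 rose with BDL in ENT, 1 in SLE, and 5 in MLE pigs, led by *SPP1* in ENT (log2 2.17 ± 0.28, adjusted p = 1.83e-07) and *KRT7* in SLE (1.46 ± 0.35, adjusted p = 0.00942) and MLE pigs (1.83 ± 0.39, adjusted p = 0.000728). None of the 10 hepatocyte markers was called in the 9 comparisons. At an adjusted p under 0.05 without the fold limit, 5 were lower and 1 was higher with BDL in ENT pigs (17.4% of all genes), none passed in SLE pigs (4.54%), and 6 were lower in MLE pigs (14.4%). *ALB*, which encodes albumin, was at log2 -0.83 ± 0.15 in ENT pigs (adjusted p = 7.46e-05), and *APOA1*, an apolipoprotein of high-density lipoprotein, at -0.77 ± 0.16 in MLE pigs (adjusted p = 0.000442). The higher marker in ENT pigs was *TF*, which encodes transferrin (log2 0.84 ± 0.13, adjusted p = 3.78e-06). Relative to ENT-sham, 3 were lower and 1 higher in SLE-sham (27.5%), and 2 were lower and 1 higher in MLE-sham (21.1%), where *CYP1A2* and *NR1I3* fell. Of these, *TTR*, which encodes transthyretin, was at log2 -0.46 ± 0.13 in SLE-sham (adjusted p = 0.00502) and *TF* at 0.77 ± 0.13 (adjusted p = 5.16e-06). Relative to ENT-BDL, 1 was higher and 1 lower in SLE-BDL (19.6%). In MLE-BDL 1 was lower (16.8%), which was *TTR* (log2 -0.88 ± 0.14, adjusted p = 1.11e-05). The median of the list shifted by log2 -0.20 in SLE-sham and 0.03 in MLE-sham relative to ENT-sham. It shifted by log2 -0.26 with BDL in ENT, -0.07 in SLE, and -0.46 in MLE pigs.

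Of 9 stellate cell and fibroblast markers, none was called with BDL in ENT (3.39% of all genes), 1 rose in SLE (1.49%), and 2 rose in MLE pigs (3.78%). Macrophage and Kupffer cell markers had 1 of 10 called with BDL in ENT, 2 in SLE, and 1 in MLE pigs. *MARCO* rose on each diet, and *CLEC4F* fell on SLE (log2 -1.12 ± 0.34, adjusted p = 0.0422). The median of this list was log2 -0.38 in ENT, -0.06 in SLE, and -0.37 in MLE pigs. Of 9 endothelial markers, none was called with BDL in ENT or SLE pigs, and 1 fell in MLE pigs. Of 10 tested lymphocyte and neutrophil markers, 1 rose with BDL in SLE and 1 in MLE pigs. Between diets, 2 cholangiocyte markers were higher in SLE-sham than in ENT-sham, 1 was lower in MLE-sham than in SLE-sham, and 1 lymphocyte and neutrophil marker was higher in SLE-BDL than in ENT-BDL. Without both matching libraries, 4 cholangiocyte markers and 1 macrophage and Kupffer cell marker were again called with BDL in ENT pigs, 3 were higher in SLE-sham and 1 in MLE-sham than in ENT-sham, and the lymphocyte and neutrophil list gained 1 rise with BDL in ENT pigs, 1 higher marker in SLE-sham than in ENT-sham, and 1 lower marker in SLE-BDL than in ENT-BDL. No marker of these lists was at 0 in a whole group, and the part of these cell types in the differences of CYP and receptor genes was not tested.

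Receptor and enzyme levels were also compared pig by pig within each group, for 4 gene pairs and so 24 relations, with two-sided permutation tests (exact for MLE groups). None passed an adjusted p under 0.05. *CYP1A1* with *CYP1A2* gave a Pearson r of 0.309 to 0.625 (adjusted p at least 0.388), and without the 2 pigs farthest from the median r was -0.187 in MLE-sham and 0.0996 in ENT-BDL. *AHR* and *CYP1A1* gave r between -0.233 and 0.474, and *NR1I2* and *CYP3A29* between -0.19 and 0.57. The closest relation was *NR1I3* with *CYP3A29* in SLE-sham (r = 0.844, permutation p = 0.00272, adjusted p = 0.0653, Spearman rho = 0.782, permutation p = 0.0106), with r = 0.824 without the 2 pigs farthest from the median. It was weak in ENT-sham (r = 0.0361) and MLE-sham (r = 0.0931). In the BDL groups r was 0.622 on ENT, 0.484 on SLE, and 0.585 on MLE. Without the 2 pigs farthest from the median, these were 0.132, 0.0219, and 0.344.

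Genes whose level followed the most abundant gene of each family over the 60 pigs were found by Pearson r, as a description in which differences between groups are included. For *CYP3A22* these were *CTNNA1* (r = 0.841), *ABCB4* (0.818), *PTPRU* (0.804), *TM4SF4* (0.804), and *ITGB3* (0.794), and their r was 0.677, 0.642, 0.605, 0.55, and 0.494 after group means were subtracted. *ABCB4* encodes the canalicular phospholipid transporter. For *CYP1A1* they were *HAO1* (0.599), *FOXRED1* (0.595), *TNFAIP8L1* (0.587), *PTRHD1* (0.545), and *OTC* (0.537), of which *HAO1* and *OTC* are hepatocyte enzymes. For *NR1I2* they were *DCPS* (0.753), *SLC17A4* (0.742), *STEAP3* (0.714), *SEC14L2* (0.71), and *GPAM* (0.706).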

How the data were processed

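RNA of 60 pig livers was sequenced from poly-A selected, paired-end libraries. The authors trimmed reads with fastp, aligned them to Sscrofa11.1 with HISAT2 2.0.5, and deposited whole-number counts per gene from featureCounts 1.5.0-p3 (StringTie 1.3.3 is also named), without normalization. Whether multi-mapping reads were counted is not given in the sources used here. Groups came from the labels. Rows without a gene name (24 rows, 0.00842% to 0.0407% of counts) were left out. Genes passing filterByExpr were scaled by TMM and fitted over all pigs with edgeR 4.0.16 (estimateDisp, glmQLFit with robust=TRUE, glmQLFTest), adjusted over 16210 genes, in R 4.3.3. CPM used effective library sizes, log2 CPM a prior count of 2, and levels between genes the deposited gene lengths. SE was taken from the fold change and its F statistic. Correlations used Python 3.11.15 with scipy 1.17.1 (100000 resamples for groups of 10 or more).

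Alternatives were DESeq2 1.42.0, RLE normalization, no filter, the groups compared alone, the 3-digit identifier number or the replicate number as a block, any fold change, and leaving out each pig or both matching libraries (for the gene lists, chosen after seeing the data). The CYP3A sum, planned over 4 names, covers 3 rows. Named genes were the members, at most 4 called genes per list and comparison with the largest fold changes, and the 5 genes most correlated with the most abundant member of each family. Members and lists were chosen with earlier results of these data known. Of the listed genes, *UGT1A1*, *GSTA2*, *CES2*, *CYB5R3*, and *FDX2* had no matching row and were not analysed here. The tests were also run on simulated data. Labels do not tie pigs to litters.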

Additional observations from a re-analysis of the deposited data

Results flagged for a closer look

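Of 32 sets of levels of 1 gene in 1 group of 8 to 10 pigs, 5 held a pig far from the others by Dixon's gap. Chance gives about 1 in 20 for normally distributed levels. CPM was used here without a log, so that rate may not hold. MLE-BDL replicate 2 had the highest *CYP1A2* (34.6 CPM, next 11.7) and *CYP3A22* (5001 CPM, next 3547) of its group. Without it, *CYP1A2* in MLE-BDL against ENT-BDL was at log2 -2.32 in place of -1.72, and *CYP3A22* with BDL on MLE at 1.09 in place of 1.22. *CYP3A46* was 99.6 CPM in ENT-BDL replicate 4 (next 44.1) and 69.6 CPM in SLE-sham replicate 6 (next 35.6), and without the latter pig its rise with BDL on SLE passed the threshold (log2 1.63, adjusted p = 0.013). *NR1I2* was 91.5 CPM in MLE-sham replicate 2 (next 125.3).

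*LOC110259856*, a row beside *CYP3A29* outside the comparisons, averaged 0.179 CPM in ENT-BDL, 0.155 in SLE-BDL, and 0.179 in MLE-BDL, against 0.0144, 0.0616, and 0.0462 CPM in the sham groups, which is a few reads per library or none.

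The BDL response differed by diet in the interaction test for *ALAS1* (log2 1.53 higher on SLE than on ENT, adjusted p = 0.00547), *POR* (0.91, adjusted p = 0.0035), *FDX1* (0.68, adjusted p = 0.00265), and *ABCC3* (0.70, adjusted p = 0.00916), and for *ABCC3* also on MLE (0.81, adjusted p = 0.0423). The SLE values without both matching libraries were 1.58, 0.94, 0.73, and 0.74, and *ABCC3* was at 0.85 on MLE, and each passed. With BDL in ENT pigs these genes were at log2 -0.91, -0.64, -0.74, and -0.51, each under 2-fold. For *SPP1*, a cholangiocyte marker, the response on SLE was log2 -2.12 relative to ENT (adjusted p = 0.00131), with 112.1 CPM already in SLE-sham against 19.6 CPM in ENT-sham. Without both matching libraries *SPP1* was at -2.54, and 3 further cholangiocyte markers passed, with *KRT7* at -1.21 in place of -0.40, *KRT19* at -1.09 in place of -0.82, and *CFTR* at -0.95 in place of -0.54. *CEBPA* (0.73) and the hepatocyte marker *ASGR1* (0.33) then passed as well.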

How the results depend on the processing

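No direction of a called member or of a count reversed under any setting. Except at any fold change, the share of all genes called was not counted under the other settings. The counts below can therefore not be set beside a general change in calls. Members called with BDL in SLE pigs were 1 with DESeq2, 1 with the identifier block, and 0 to 1 with 1 pig left out (without SLE-sham replicate 6 or SLE-BDL replicate 2, 3, or 6). With BDL in ENT pigs 2 to 4 were called with 1 pig left out, the 2 without ENT-BDL replicate 4. At any fold change there were 5 with BDL in ENT pigs (17.4% of all genes), 3 in MLE pigs (14.4%), and 5 for MLE-BDL against ENT-BDL (16.8%), which also had 5 with the identifier block. For SLE-BDL against ENT-BDL the identifier block gave 2, a block on replicate number 0, and leaving out 1 pig 0 to 2. For the SLE against ENT response, 1 was called with the identifier block, 1 without both matching libraries, and 0 to 1 with 1 pig left out. The CYP3A sum in MLE-BDL against ENT-BDL was log2 -0.92, then -1.30 with the identifier block and -1.04 to -0.72 with 1 pig left out. Its response on SLE against ENT was -1.21, then -1.41 without both matching libraries and -1.44 to -1.02 with 1 pig left out. Replicate numbers did not pair the pigs (r of same-numbered pigs -0.231 to 0.381 over 82 pairs), and under the replicate block *CYP3A29* in MLE-BDL against ENT-BDL had an adjusted p of 0.0637 and *NR1I3* in SLE-BDL against ENT-BDL a log2 fold change of -0.99. Depth limits the precision of genes with few reads, such as *VDR*, *ARNT2*, and *CYP2B22*. The causes of these changes were not tested.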

Other observations

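*NR1I3* and *CYP1A2* levels had a positive r in each of the 6 groups, a relation chosen after the data were seen together with those of *CYP3A22* to *CYP3A29* and to *CYP3A46* (18 relations, two-sided permutation tests, exact for MLE groups). For *NR1I3* and *CYP1A2*, Pearson r was 0.735 to 0.86, with an adjusted p under 0.05 in 5 of 6 groups, and Spearman rho was 0.548 to 0.758, with none under 0.05 after adjustment. Without the 2 pigs farthest from the median, r was between -0.11 in MLE-BDL and 0.756 in SLE-sham, so in MLE-BDL the relation rests on those pigs. With the identifier number subtracted, r was 0.526 to 0.854. *CYP3A22* correlated with *CYP3A29* at r = 0.254 to 0.844 (adjusted p under 0.05 in 2 groups) and with *CYP3A46* at r = 0.147 to 0.748 (3 groups). Of these 3 groups, r with *CYP3A46* was 0.272 in MLE-BDL with the identifier number subtracted, and 0.397 in ENT-BDL without the 2 pigs farthest from the median. No rho of these relations passed adjustment.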
